A study of Mus musculus with 12 samples.

Results

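The 10 genes described here handle heme and iron: Hmox1, Hmox2, Alas1, Alas2, Tfrc, Slc40a1, Slc11a1, Fth1, Cp and Hamp. They were taken by gene symbol, from probesets annotated with exactly 1 symbol, by a rule that uses no measured value, although the set was proposed with earlier results of these data known, and all 10 were found among the 20352 genes of the arrays, on 109 of 241576 probesets. A probeset is a group of probes that covers part of a gene. The study compared the border zone of infarcted mouse hearts (6 hearts) with the matching site of sham-operated hearts (6 hearts). Both groups were C57BL/6J mice 12 weeks of age, sampled 2 weeks after surgery, and no transgene or drug is named in the labels. The way the infarct was made is not given in the sources used here. Each heart gave 1 biotin-labelled, one-colour array, and the 6 arrays of a group are stated to be biological replicates.

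Heme is made from glycine and succinyl-CoA. The first and rate-limiting step, in the mitochondrion, is carried out by 5-aminolevulinate synthase, encoded by Alas1 in all tissues and by Alas2 in red cell precursors. Heme oxygenases split heme into biliverdin, carbon monoxide and iron. Iron enters cells through the transferrin receptor (Tfrc), is stored in ferritin (Fth1 encodes its heavy chain) and leaves through ferroportin (Slc40a1), which the liver hormone hepcidin (Hamp) removes from the membrane. In muscle and other tissues, iron regulatory proteins act on the Tfrc and ferritin messages. Macrophages that engulf dying cells and red cells recycle heme iron through Hmox1 and Slc40a1.

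The iron exporter gene Slc40a1 was lower and the heme oxygenase gene Hmox1 higher in infarcted tissue, each with no overlap between the groups. Slc11a1, a metal transporter of the macrophage phagosome, was also higher, and Alas2 was lower. The transferrin receptor gene Tfrc averaged 1.57-fold higher but did not pass the test. Of the 10 genes 2 rose, 2 fell and 6 did not pass (limma, adjusted p under 0.05), against 20.3% of all genes called in either direction. Their median difference was 0.02 on the log2 scale, against -0.04 for all genes tested. The number called was 2 without sham replicate 3, sham replicate 4, infarcted replicate 1 or infarcted replicate 3, where the calls of Alas2 and Slc11a1 ended. It was 4 without infarcted replicates 4 and 5, the 2 highest arrays for the adipocyte gene Adipoq (4.47 and 6.59), and 3 without infarcted replicates 2, 4 and 5. In a bulk sample of tissue, fewer cells of a type and less RNA per cell cannot be told apart.

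**Figure D1:**
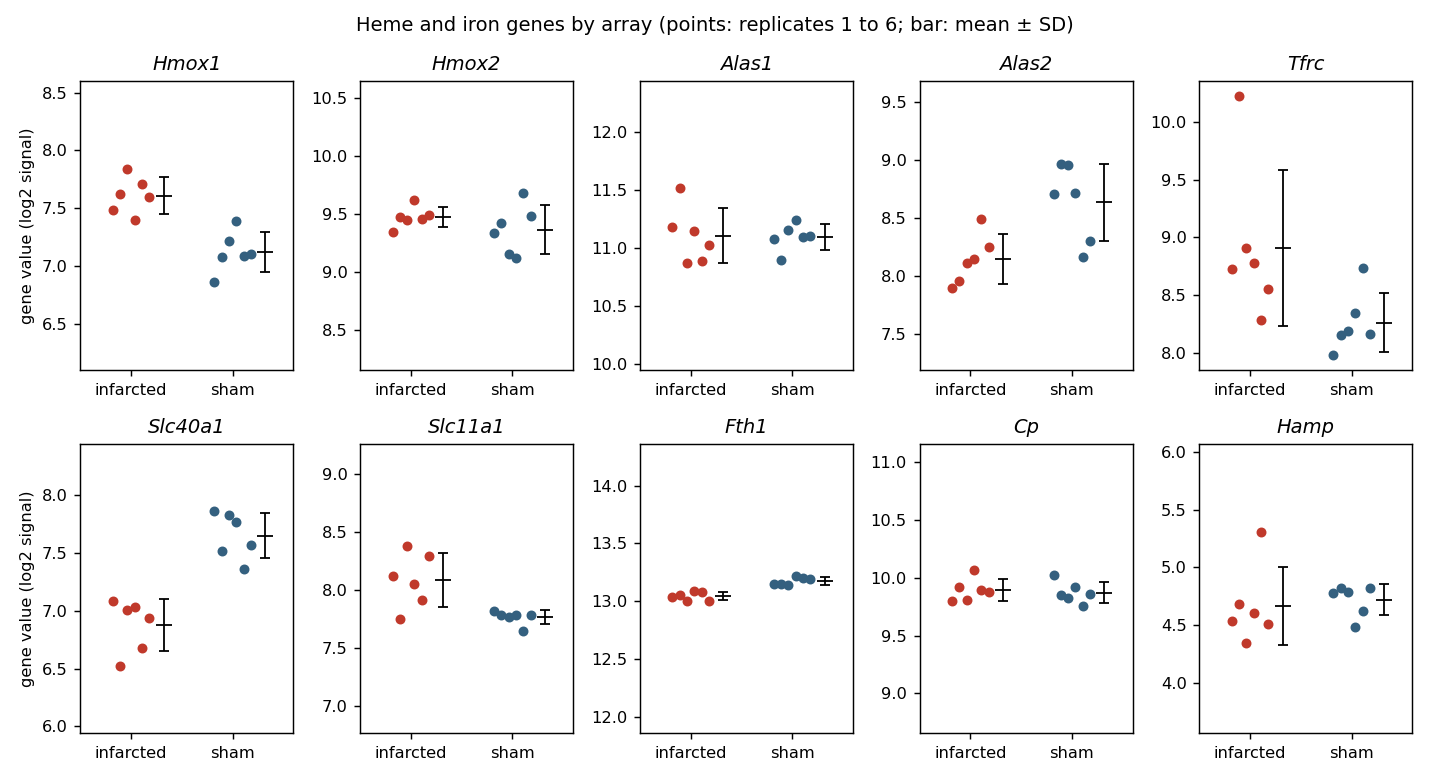
Gene value of each heme and iron gene (log2 signal, vertical axis, the same span in every panel) in the 6 infarcted and the 6 sham arrays, with the mean and SD beside the points. Infarcted arrays lie above all sham arrays for Hmox1 and below them for Slc40a1 and Fth1, and 1 infarcted array stands apart at 10.22 for Tfrc.

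The 12 arrays had medians between 7.04 and 7.06 in infarcted hearts and between 7.00 and 7.03 in sham hearts. They correlated between 0.956 and 0.979 with each other over all probesets. Cardiomyocyte markers were bright in all arrays, with a mean log2 signal of 13.05 to 13.14 in infarcted and 13.17 to 13.22 in sham hearts, as the tissue label says. Of 12 such markers 1 fell (Ckm, -0.32), and Myh6 differed by -0.18 (adjusted p = 0.0688). All 12 fibroblast markers rose, among them Mfap5 (2.37) and Postn (3.08), and 15 of 18 macrophage markers rose, among them Lgals3 (1.86) and Mpeg1 (1.66). Of 10 endothelial markers 1 rose (Erg, 0.35), while Cdh5 differed by 0.24 (adjusted p = 0.076). Of 8 atrial markers 3 rose, with Nppa at 2.04 and Pam at 0.53, and 1 fell (Stard10, -0.85). Myl7 and Myl4, chosen for mention after their values were seen, were not called (limma, adjusted p = 0.455 and 0.203). They were uneven among infarcted arrays. Myl7 was 5.07 to 9.32 in infarcted and 5.35 to 7.24 in sham hearts, and Myl4 7.83 to 11.30 and 7.69 to 8.95. Of 8 epicardial and mesothelial markers 1 rose (Krt18, 0.82), and Lrrn4 differed by 0.24 (adjusted p = 0.351). Over all genes 10.1% were called higher and 10.2% lower. The shares of endothelial (10% higher), epicardial and mesothelial (12.5% higher) and cardiomyocyte markers (8.33% lower) were near these. Of 11 neutrophil markers 0 passed in limma (Mpo, -0.37, adjusted p = 0.0614, and Mmp8, 0.35, adjusted p = 0.092). Of 9 adipocyte markers 0 passed in limma (Car3, 2.16, adjusted p = 0.0718), and Adipoq differed by 0.71. The part of these cell types in the results below was not tested, except where values are given.

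Slc40a1 encodes ferroportin, the iron exporter of the cell membrane. Its log2 signal was lowest at 6.53, had a median of 6.97 and was highest at 7.08 in infarcted hearts, against 7.36, 7.67 and 7.86 in sham hearts. Every infarcted array lay below every sham array. The difference was -0.77 ± 0.11 (SE, n = 6 per group), a ratio of 0.585 with a 95% interval of 0.494 to 0.693 (limma, adjusted p = 0.000266). All 9 of its probesets were lower in infarcted tissue, by 0.44 to 1.13 on the log2 scale, and 7 of them passed at the level of single probesets, where 4.3% of all probesets were called lower. The call held whichever of the 12 arrays was dropped, with differences from -0.83 to -0.70.

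Hmox1 encodes heme oxygenase 1, the form that cells induce under oxidative stress and on exposure to heme. Its log2 signal was lowest at 7.40, had a median of 7.61 and was highest at 7.84 in infarcted hearts, against 6.86, 7.10 and 7.39 in sham hearts. The groups did not overlap, but the lowest infarcted array and the highest sham array (replicate 4) nearly met. The difference was 0.48 ± 0.10 (SE, n = 6 per group), which is 1.40-fold with a 95% interval of 1.21 to 1.61 (limma, adjusted p = 0.00241). Of its 8 probesets 4 rose, against 6.39% of all probesets, with differences from 0.00 to 0.89. The brightest probeset, at 8.41 in infarcted and 7.72 in sham hearts, differed by 0.69 with a wider error (SE 0.28, adjusted p = 0.145).

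Hmox2 encodes heme oxygenase 2, the form present without induction. Its log2 signal was lowest at 9.35, had a median of 9.46 and was highest at 9.62 in infarcted hearts, against 9.12, 9.38 and 9.68 in sham hearts. The sham arrays spanned the whole range of the infarcted ones. The difference was 0.11, with a 95% interval of -0.09 to 0.31 (limma, adjusted p = 0.474). When the gene value was the mean over probesets in place of the median, the difference was 0.24 and passed (adjusted p = 0.0451). That mean included a dim probeset that differed by 0.89, at 5.47 in infarcted and 4.58 in sham hearts, while the other 4 differed by 0.03 to 0.11.

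The pair of genes for the first step of heme synthesis gave different values. Alas2, the form of red cell precursors, was lowest at 7.90, had a median of 8.13 and was highest at 8.49 in infarcted hearts, against 8.17, 8.71 and 8.97 in sham hearts (log2 signal). The groups overlapped through sham replicates 5 and 6, which lay at 8.17 and 8.30. The difference was -0.49 ± 0.15 (SE, n = 6 per group), a ratio of 0.711 with a 95% interval of 0.573 to 0.882 (limma, adjusted p = 0.0267). All 12 probesets were lower, by 0.27 to 0.76 on the log2 scale. Of these 1 passed, against 4.3% of all probesets called lower. When single arrays were dropped, 7 of 12 fits no longer called Alas2 (adjusted p from 0.0076 to 0.0596).

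Alas1, the form that most cells use, had a log2 signal that was lowest at 10.87, had a median of 11.09 and was highest at 11.52 in infarcted hearts, against 10.90, 11.10 and 11.24 in sham hearts. The difference was 0.01, with a 95% interval of -0.21 to 0.23 (limma, adjusted p = 0.959), and 5 of its 10 probesets were higher and 5 lower. Infarcted replicate 2 was the highest of the 12 arrays for Alas1. The difference between the changes of Alas1 and Alas2 was not tested.

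The upstream sequences of the pair are shown because Alas2 passed the test and Alas1 did not. Each line gives the 250 bases before an annotated start, 5′ to 3′ on the gene's strand, from RefSeq (GRCm38.p6). The Alas2 stretch is chrX:150547167-150547416 on the plus strand, and the Alas1 stretch is chr9:106247955-106248204 on the minus strand, before the more upstream of its 2 annotated starts. Capitals mark matches to the motifs searched.
Alas2: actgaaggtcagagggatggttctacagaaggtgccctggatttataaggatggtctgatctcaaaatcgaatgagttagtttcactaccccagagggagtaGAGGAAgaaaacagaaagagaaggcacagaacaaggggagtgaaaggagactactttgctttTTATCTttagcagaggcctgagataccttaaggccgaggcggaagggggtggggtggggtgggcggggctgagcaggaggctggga
Alas1: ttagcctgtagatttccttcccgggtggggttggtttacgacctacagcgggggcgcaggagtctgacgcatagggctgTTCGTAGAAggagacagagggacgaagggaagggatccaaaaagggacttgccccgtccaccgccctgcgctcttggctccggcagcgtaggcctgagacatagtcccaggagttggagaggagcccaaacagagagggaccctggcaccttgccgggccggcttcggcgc

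The motifs were AGATAA for GATA factors, the NRF-1 palindrome (by name alone), ACGTG for the hypoxia response core, GAGGAA for PU.1, TTCNNNGAA for STAT factors and TGACNNNGC for the antioxidant response core, on both strands. The Alas2 stretch holds AGATAA on the reverse strand, 86 to 81 bases before the start, a word found in 9.99% of all 32851 such stretches. GATA1 is a master factor of red cell genes. The Alas2 stretch also holds GAGGAA, found in 23.3% of stretches. Neither word was found in Alas2 alone. The Hamp stretch holds AGATAA, 128 to 123 bases before the start, and the Slc11a1 stretch holds GAGGAA, 152 to 147 bases before it. The Alas1 stretch printed holds TTCNNNGAA (7.02% of stretches), and the stretch before its other start holds the NRF-1 word, 195 to 186 bases upstream, found in 0.782% of stretches. NRF-1 is a factor of genes for mitochondrial proteins. The motifs were picked from knowledge of these factors with results of these data known, a match is a description of the letters, and no data here bear on binding.

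Red cell genes were set beside Alas2. Of 8 measured erythroid markers 2 fell and 0 rose, all 8 differences were negative, against 10.2% of all genes called lower, and the log2 of their summed signal was 8.69 to 9.16 in infarcted and 8.82 to 9.51 in sham hearts. These markers were dimmer than Alas2, with a median sham level of 5.95 against its sham mean of 8.64. Rhd, of the Rh blood group complex, fell by 0.56 (adjusted p = 0.0141), and Rhag, its partner, fell by 0.44 (adjusted p = 0.0246) at a dim signal (3.13 in infarcted and 3.57 in sham hearts). Slc4a1, the anion exchanger of the red cell membrane, lay between 6.04 and 6.59 in infarcted hearts and between 6.12 and 7.32 in sham hearts, with a difference of -0.44 (adjusted p = 0.119). Sham replicates 5 and 6, the lowest sham arrays for Alas2, were also the lowest for Slc4a1 (6.12 and 6.20) and for the globin gene Hbb-b1 (7.04 and 6.92). Rhd differed in this, as sham replicate 5 shared its highest sham value with sham replicate 4 (6.47) and sham replicate 6 held its lowest (5.80). Hbb-b1 was 6.72 to 8.06 in infarcted and 6.92 to 8.23 in sham hearts, with a difference of -0.13 (adjusted p = 0.808). Among infarcted arrays, replicate 5 was the highest for both Alas2 (8.49) and Hbb-b1 (8.06). Replicate 2 was next to the lowest for Alas2 (7.96) and next to the highest for Hbb-b1 (8.05). Other globin genes were not analysed here. The part of red cells in the Alas2 result was not tested.

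**Figure D2:**
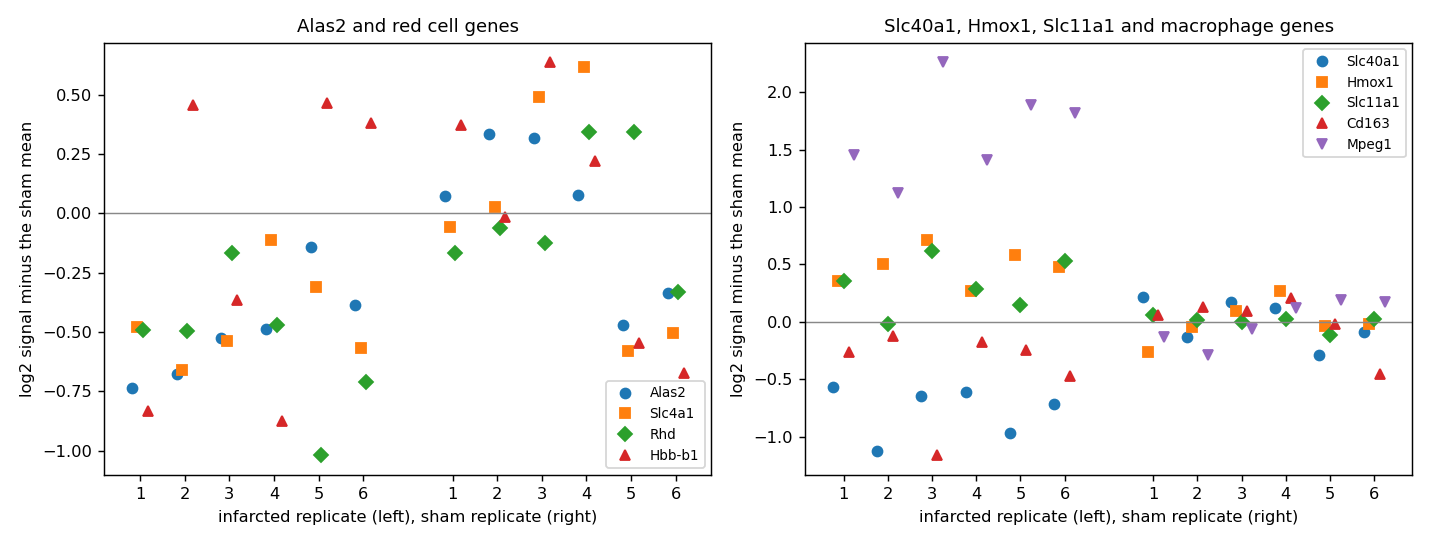
Log2 signal minus the sham mean of the same gene (vertical axis) in each infarcted and each sham array (horizontal axis). Left, Alas2 with 3 red cell genes, where sham replicates 5 and 6 are the lowest sham arrays for Alas2, Slc4a1 and Hbb-b1, while for Rhd replicate 5 shares the highest sham value (6.47). Right, Slc40a1 lies below 0 in all 6 infarcted arrays while the macrophage gene Mpeg1 lies above 0 in all 6.

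Slc11a1 encodes a metal transporter of the phagosome membrane that macrophages and neutrophils carry. C57BL/6 mice are known to carry a loss-of-function allele of it. The log2 signal was lowest at 7.75, had a median of 8.09 and was highest at 8.38 in infarcted hearts, against 7.65, 7.78 and 7.82 in sham hearts. Infarcted replicate 2 fell within the sham range, and the other 5 lay above it. The difference was 0.32 ± 0.10 (SE, n = 6 per group), which is 1.25-fold with a 95% interval of 1.08 to 1.44 (limma, adjusted p = 0.0316). Dropping single arrays ended the call in 6 of 12 fits (adjusted p from 0.00617 to 0.0734). Centring each array on its median ended it too (adjusted p = 0.057), as did quantile normalization (adjusted p = 0.0535).

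Single probesets of Slc11a1 moved by more than the gene value. Of 15 probesets 8 rose and 0 fell, against 6.39% and 4.3% of all probesets. The risen ones differed by 0.58 to 0.93, and the median over all 15 was 0.68. The gene value of an array is the median over probesets. The pair of probesets nearest that level lay at 8.09 and 7.97 in infarcted and 7.94 and 7.77 in sham hearts, and differed by 0.15 and 0.20. With the mean over probesets the difference was 0.53 (adjusted p = 0.00043).

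Macrophage markers rose beside these genes. The log2 of the summed signal of 18 macrophage markers was 12.68 to 13.16 in infarcted and 11.98 to 12.30 in sham hearts, with no overlap. Slc40a1, which macrophages use to export recycled iron, went the other way in all 6 infarcted arrays. Cd163, the macrophage receptor for hemoglobin bound to haptoglobin, was lowest at 5.56, had a median of 6.47 and was highest at 6.60 in infarcted hearts, against 6.27, 6.80 and 6.93 in sham hearts. Its difference was -0.41 (adjusted p = 0.0987), and infarcted replicate 3, the lowest for Cd163, was the highest for Hmox1 (7.84), Slc11a1 (8.38) and the mean of the macrophage markers (8.44). The part of macrophages in the results for Hmox1, Slc11a1 and Slc40a1 was not tested.

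Tfrc encodes the transferrin receptor, the main route of iron into cells. Its log2 signal was lowest at 8.29, had a median of 8.75 and was highest at 10.22 in infarcted hearts, against 7.99, 8.18 and 8.73 in sham hearts. Infarcted replicate 2 held the value of 10.22, and the next highest was 8.91. The difference was 0.65 ± 0.25 (SE, n = 6 per group), which is 1.57-fold with a 95% interval of 1.08 to 2.28, and it did not pass (limma, adjusted p = 0.0862). Without infarcted replicate 2 it was 0.39 (adjusted p = 0.0613), and without infarcted replicate 5, the lowest of the infarcted arrays, it was 0.77 and passed (adjusted p = 0.0495). All 18 probesets had a positive difference, from 0.34 to 0.95, and 2 of them passed, against 6.39% of all probesets called higher.

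Fth1 encodes the ferritin heavy chain, which oxidises iron for storage. Its signal was among the brightest, above that of 99.9% of genes. It was lowest at 13.00, had a median of 13.05 and was highest at 13.09 in infarcted hearts, against 13.14, 13.17 and 13.22 in sham hearts. The groups did not overlap, but the difference was small at -0.13 ± 0.05 (SE, n = 6 per group), a ratio of 0.914 with a 95% interval of 0.843 to 0.991. It did not pass in limma (adjusted p = 0.112), which draws the spread of each gene towards that of all genes. It passed when a trend of that spread with brightness and a robust fit were used together (adjusted p = 0.00696), after each array was centred on its median (-0.17, adjusted p = 0.033) and when probesets were averaged (-0.20, adjusted p = 0.0101). All 6 of its probesets were lower, by 0.06 to 0.48 on the log2 scale, and 0 passed alone. The dimmest, at 9.52 and 10.48 in infarcted hearts, differed by -0.48 and -0.34, and the others by -0.14 to -0.06. The average over probesets included the dimmest. Ferritin heavy chain has pseudogenes of like sequence, and their part in the signal was not tested.

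Cp encodes ceruloplasmin, a copper enzyme that oxidises iron on its way out of the cell. Its log2 signal was lowest at 9.80, had a median of 9.88 and was highest at 10.06 in infarcted hearts, against 9.75, 9.85 and 10.02 in sham hearts. The difference was 0.02, with a 95% interval of -0.13 to 0.17 (limma, adjusted p = 0.865). Of its 24 probesets 2 fell, by 0.62 and 0.33 on the log2 scale (adjusted p = 0.0422 and 0.0488), and the other 22 differed by -0.30 to 0.19. Of all probesets 4.3% were called lower.

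Hamp encodes hepcidin, made chiefly by the liver. Its 2 probesets were dim, and its gene value lay above that of only 21.2% of genes, so the arrays say little about it. The log2 signal was lowest at 4.34, had a median of 4.57 and was highest at 5.31 in infarcted hearts, against 4.49, 4.78 and 4.83 in sham hearts. Infarcted replicate 5 held the highest value. The difference was -0.06, with a 95% interval of -0.34 to 0.23 (limma, adjusted p = 0.821).

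**Figure D3:**
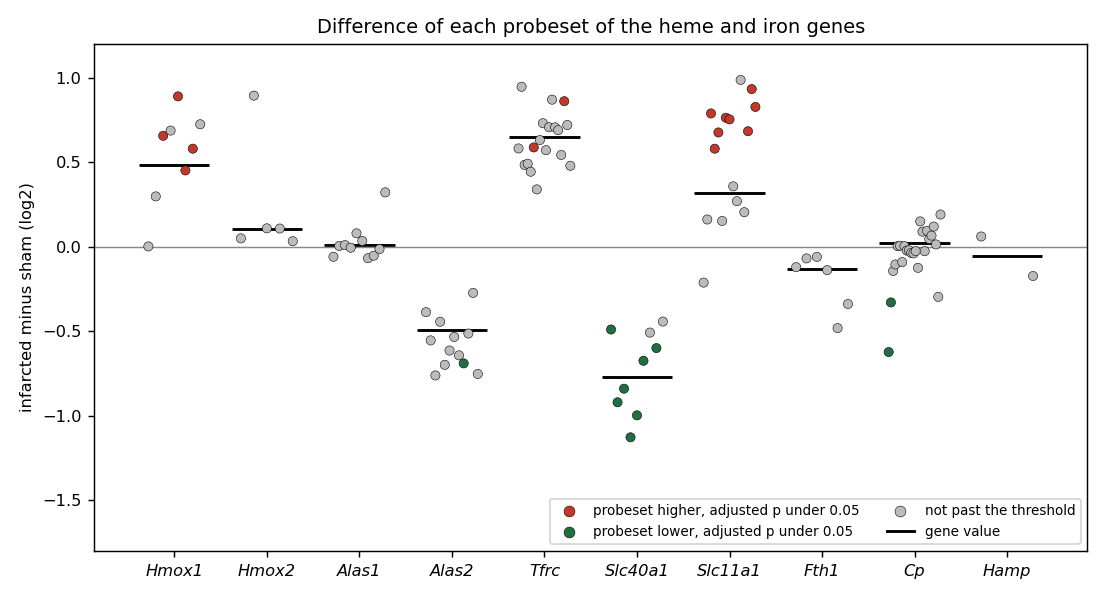
Difference of each probeset, infarcted minus sham (log2, vertical axis), for the 10 genes, with the gene value as a black bar. The 7 green points of Slc40a1 and the 8 red points of Slc11a1 passed the test at the level of single probesets, and all points of Alas2 lie below 0 and all points of Tfrc above it.

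Over the 109 probesets of the 10 genes, 14 rose and 10 fell, against 10.7% of all probesets called in either direction. An exact permutation test over the 924 ways to choose 6 of 12 arrays was run for each gene (two-sided, unadjusted, 10 tests). Slc40a1, Hmox1 and Fth1 gave the smallest p it allows, 0.00216, Slc11a1 gave exact p = 0.013, Alas2 exact p = 0.0152 and Tfrc exact p = 0.0238. Of the 10 genes 6 had an unadjusted exact p under 0.05, against 31.6% of all genes. The groups did not overlap in 3 of the 10, against 11.3% of all genes. Infarcted arrays lay wholly above in 1 of the 10 and wholly below in 2, against 5.97% and 5.29% of all genes.

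The other heme synthesis genes that passed were all lower. Of 11 measured genes 6 fell and 0 rose, with a median difference of -0.34, against 10.2% of all genes called lower and a median of -0.04. Alad, which joins 2 molecules of 5-aminolevulinate in the next step after Alas1, was lowest at 9.36, had a median of 9.67 and was highest at 9.84 in infarcted hearts, against 10.15, 10.23 and 10.50 in sham hearts. Uros, which closes the porphyrin ring, was lowest at 7.11, had a median of 7.43 and was highest at 7.46 in infarcted hearts, against 7.75, 7.88 and 8.04 in sham hearts. In both, named for their small p, the groups did not overlap, against 11.3% of all genes. Alad differed by -0.61 (adjusted p = 0.000308) and Uros by -0.54 (adjusted p = 0.000293). Cpox, a mitochondrial oxidase of the pathway, fell by 0.42 (adjusted p = 0.0112). Fech, which inserts iron into the ring, was chosen for mention after its value was seen, and differed by -0.11 (adjusted p = 0.381).

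The genes of mitochondrial iron use that passed were all lower too. Of 16 measured genes for mitochondrial iron import and iron-sulfur clusters 7 fell and 0 rose, with a median difference of -0.27. Of all genes 10.2% were called lower and 10.1% higher, with a median of -0.04. Nfs1, the desulfurase that supplies sulfur to the clusters, was lowest at 9.03, had a median of 9.14 and was highest at 9.33 in infarcted hearts, against 9.48, 9.63 and 9.72 in sham hearts. Slc25a28, the iron importer mitoferrin 2, fell by 0.41 (adjusted p = 0.00109), and Hspa9, the mitochondrial chaperone that hands clusters on, fell by 0.29 (adjusted p = 0.00377). The groups did not overlap in any of these 3, which were named for their small p, against 11.3% of all genes. Cardiomyocyte markers, whose cells are rich in mitochondria, had a median difference of -0.09 beside them, and their part in these falls was not tested. These markers were brighter, with a median sham level of 13.28 against 9.04 for the mitochondrial iron list, so the 2 medians may not compare directly.

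Of 16 measured genes of heme transport and breakdown 4 rose and 2 fell, against 10.1% of all genes called higher and 10.2% called lower, with a median difference of -0.02. The share that fell, 12.5%, was near that of all genes. Lrp1, the receptor for heme bound to hemopexin and for many other ligands, was lowest at 10.86, had a median of 11.12 and was highest at 11.43 in infarcted hearts, against 10.01, 10.15 and 10.21 in sham hearts, which is 2.00-fold (adjusted p = 6.9e-06). Hp, which encodes haptoglobin, the plasma binder of free hemoglobin, was lowest at 5.82, had a median of 7.06 and was highest at 8.87 in infarcted hearts, against 5.46, 5.62 and 5.78 in sham hearts. Its difference was 2.70-fold (adjusted p = 0.0119). Infarcted replicate 5 was the highest for Hp and for Adipoq, and the part of adipocytes, which express Hp, was not tested. Flvcr2, a membrane transporter first described as a heme importer, fell by 0.55 (adjusted p = 0.000547).

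Other genes of iron uptake, storage and regulation were mostly not called. Of 26 measured genes 1 rose and 1 fell, with a median difference of 0.00. Steap2, a metalloreductase, was lowest at 6.11, had a median of 6.25 and was highest at 6.50 in infarcted hearts, against 5.46, 5.64 and 5.82 in sham hearts (adjusted p = 0.000147). Hjv encodes hemojuvelin, a BMP co-receptor of striated muscle and liver that raises hepcidin in liver. It was lowest at 11.17, had a median of 11.37 and was highest at 11.48 in infarcted hearts, against 11.66, 11.72 and 11.88 in sham hearts (adjusted p = 0.0019). The groups did not overlap in either gene, both named for their small p, against 11.3% of all genes. Over the 4 lists 5 of 69 measured genes rose and 16 fell, against 10.1% and 10.2% of all genes. Without infarcted replicates 4 and 5 it was 4 and 14, and with the mean over probesets 6 and 26. Over all genes 1667 were called higher and 1456 lower without these replicates. With the mean over probesets it was 2720 and 2954 over all genes, against 2050 and 2074 with the median.

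**Figure D4:**
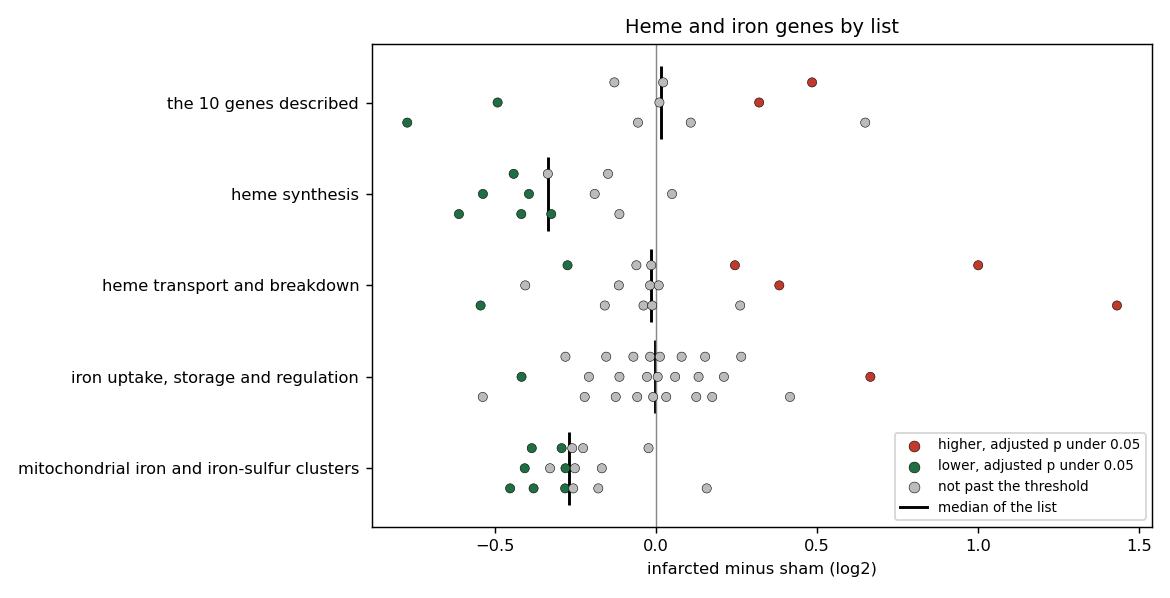
Difference of each measured gene, infarcted minus sham (log2, horizontal axis), by list (rows), with the list median as a black bar. The medians of heme synthesis (-0.34) and of mitochondrial iron and iron-sulfur clusters (-0.27) lie left of 0, and those of the other lists lie near 0.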

How the data were processed

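The deposited table gives a log2 signal per probeset for 12 arrays, as judged from its range (1.52 to 14.37), since the log base is not stated. Per the submitters' processing notes the authors used Affymetrix Power Tools, and no summary method or normalization is named there. Genes were named from probesets with exactly 1 platform symbol (212097), updated through RefSeq synonyms (GRCm38.p6), and a gene's value in an array was the median over its probesets. Some listed genes were not analysed here. Groups came from the titles. Genes and probesets were fitted with limma 3.58.1 in R 4.3.3 (two-sided, Benjamini-Hochberg over all of them, threshold 0.05). The number of arrays limits the precision.

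The 10 genes, the 4 pathway lists and the 9 cell marker lists were chosen with earlier results of these data known. The text names all 10 genes, from each pathway list the 3 called genes with the smallest p and 1 called the other way, from each marker list the 2 smallest p, and Hbb-b1, Slc4a1 and Cd163. Fech, Stard10, Myl4 and Myl7 were added outside this rule. In data simulated from 20352 genes, 97% of changes of 1 and 60% of changes of 0.5 (log2) were recovered, with 6 of 20152 unchanged genes called. Only 100 genes were given each size of change, with independent noise, while 20.3% of genes were called in the data. These rates therefore do not give the power of the fit here. RefSeq upstream sequences were found for 8 of the 10 genes and not for Hmox1 and Slc40a1. Alternatives were other summaries, filters, normalizations and variance models, a replicate block and left-out arrays. Affymetrix Power Tools is named without a version. Figures used matplotlib 3.10.9.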

Additional observations from a re-analysis of the deposited data

Results flagged for a closer look

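A few single arrays stood far from the other 5 of their group, judged by the gap to the nearest array relative to the whole range (Dixon's test at its 95% critical value). Of 86 groups of 6 arrays examined, 7 did so, and chance gives about 1 in 20. The groups covered the 10 genes, the other genes named except Fech, Stard10, Myl4 and Myl7, and Erfe. Tfrc was 10.22 in infarcted replicate 2, where the next highest was 8.91. Hamp was 5.31 in infarcted replicate 5, at dim signal, where the next was 4.68. Slc11a1 was 7.65 in sham replicate 5, only a little under the next at 7.76. Cd163 was 5.56 in infarcted replicate 3 and 6.27 in sham replicate 6. Adipoq, of adipocytes, was 6.59 in infarcted replicate 5, and Ckm, of muscle, was 11.38 in infarcted replicate 3.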

How the results depend on the processing

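Slc40a1 and Hmox1 kept their direction and their call in all 12 fits with an array left out and in 11 other settings (-0.83 to -0.64 and 0.43 to 0.54 over both kinds of fit). Leaving out an array gave 2 to 5 calls among the 10 genes, 17 to 22 among the 69 other heme and iron genes and 3454 to 4138 over all genes. With the mean over probesets 32 of the 69 were called in place of 21, and over all genes 5674 in place of 4124. With arrays centred on their medians the split over all genes was 1748 higher and 2956 lower, against 2050 and 2074. Differences near 0 changed sign. Alas1 was -0.034 with centred arrays, -0.0043 with quantile normalization, -0.069 without infarcted replicates 2, 4 and 5 (chosen after seeing the data) and -0.073 to 0.057 with an array left out. Cp was -0.046 with the mean over probesets, -0.022 with centred arrays, -0.0015 with quantile normalization, -0.020 without infarcted replicates 4 and 5, -0.044 without replicate 2 as well, and -0.012 to 0.052 with an array left out. Hamp was -0.19 to 0.0083 with an array left out. The cause was not tested. Same-numbered arrays of the groups share only a number, with correlations of their deviations from -0.05 to 0.10, and 2 of 6 infarcted arrays correlated best with their own number. With the replicate number as a block 3802 genes and 3 of the 10 were called, and Alas2 had an adjusted p of 0.0783. Hamp was not tested with dim genes left out.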
